A study of Mus musculus with 9 samples.

Results

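The genes described are 10 members of arginine, nitric oxide and polyamine metabolism, taken by name from a table of 40993 genes: Nos2, Arg1, Arg2, Ass1, Asl, Odc1, Srm, Sms, Sat1 and Oaz1. They were selected by their place in the pathway, with earlier results of these libraries known, and Arg1 also belongs to a gene network that the study built from the same libraries. Their differences between groups are therefore given as a description of these libraries. RNA was sequenced from BV2, an immortalized murine microglial cell line, in 9 libraries of 3 groups with 3 libraries each. The groups were non-treated control cells and cells treated for 12 h with MNPs@SiO2(RITC) at 10 or 100 µg/ml (0.01 or 0.1 µg/µl in the sample labels). MNPs@SiO2(RITC) are particles with a cobalt ferrite core in a silica shell that carries the dye rhodamine B isothiocyanate. All libraries come from this single cell line. No label says whether the replicates came from separate cultures, so every p-value measures only the spread between these libraries, which may be technical.

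Arginine is the common substrate of enzymes that compete for it in macrophages and microglia. Inducible nitric oxide synthase, encoded by Nos2, turns it into nitric oxide and citrulline, and arginase turns it into ornithine and urea. Ornithine decarboxylase makes putrescine from ornithine, and the polyamines spermidine and spermine follow by the addition of aminopropyl groups. A high ratio of Nos2 to Arg1 is a classical sign of inflammatory activation of mouse macrophages, and the reverse is a sign of alternative activation.

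Expression was given by the authors as FPKM, in which fragments are scaled to transcript length and to the total mapped in the library, so that levels can be compared between genes. Differences between groups were fitted with limma on log2(FPKM + 1), a scale on which the change of a weakly expressed gene is understated. The fit covered 11161 genes, those whose mean over the 9 libraries reached 1 FPKM. A gene was called at an adjusted p under 0.05 (Benjamini-Hochberg over all genes tested). FPKM holds no depth, but from the steps between low values of 1002 genes with a single transcript the depth was estimated as 12000000 to 15200000 fragments per library. This estimate is approximate: 79.1% of the 3795 low values used came within 0.25 of a whole number of fragments. The depth of each library was chosen to bring these same values closest to whole numbers, so this share is no independent check. Replicate 1 at 100 µg/ml differed most from the other libraries of its group, with an SD of the log2 difference of 0.423 against 0.316 to 0.393 in the other libraries. Of the 12 microglia and macrophage markers, 10 had a mean of at least 1 FPKM, and the homeostatic microglial genes Cx3cr1 (mean 0.0368 FPKM) and P2ry12 (0.0934 FPKM) were near 0. None of 15 markers of other brain cells reached a mean of 1 FPKM, and 9 of them were listed at 0 in every library, among them Aqp4 of astrocytes and Snap25 of neurons.

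Of the 10 genes, 8 had a mean of at least 1 FPKM and 2, Arg2 and Ass1, were at or near 0. In limma, 0 of the 8 tested genes were called at 100 µg/ml against control, 0 at 10 µg/ml against control and 0 at 100 against 10 µg/ml. Over all genes tested, the shares called were 2.11%, 0% and 0.851%. At an unadjusted p under 0.05 there were 2 of the 8 genes at 100 µg/ml against control (Odc1 and Arg1), 0 at 10 µg/ml against control, and the same 2 genes at 100 against 10 µg/ml. The unadjusted shares over all genes were 19.4%, 3.28% and 14.3%. All 3 libraries of a group lay on the same side of the 3 libraries of the other group for 3 of the 8 genes at 100 µg/ml against control (Arg1 below, Nos2 and Odc1 above). This held for 2 genes at 10 µg/ml against control (Asl below, Srm above) and for 1 gene at 100 against 10 µg/ml (Odc1 above). For all genes tested the shares without overlap were 23.8%, 10.7% and 19.4%. Against control, the 8 genes had a median log2 fold change of 0.02 at either dose, where all genes tested had a median of 0.00.

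**Figure D1:**
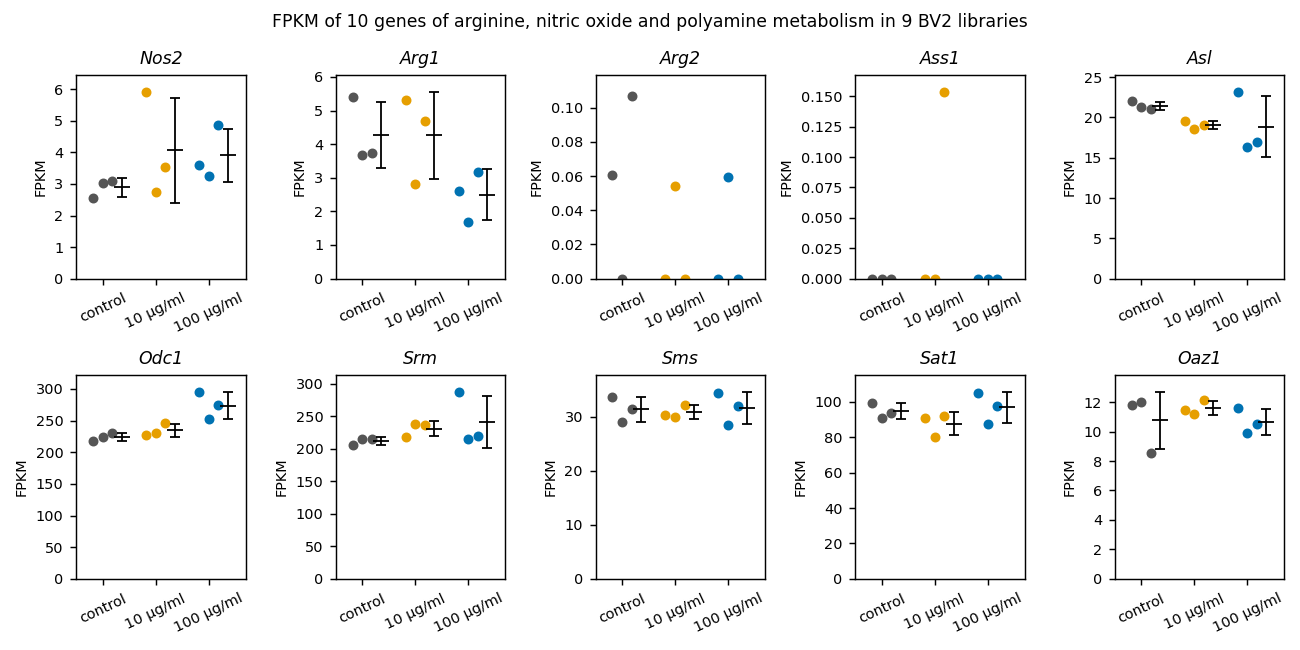
FPKM (linear axis from 0, scaled for each gene) of the 10 genes in the 3 control libraries, the 3 libraries at 10 µg/ml and the 3 at 100 µg/ml; points are libraries and bars the mean ± SD, left out for Arg2 and Ass1, which are listed at 0 in most libraries. The 3 Odc1 values at 100 µg/ml, 252 to 295 FPKM, lie above all other Odc1 values, and the 3 Arg1 values at 100 µg/ml, 1.68 to 3.18 FPKM, lie below all control values.

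In the order of their control means, expression was 224 FPKM for Odc1, 212 for Srm, 94.9 for Sat1, 31.4 for Sms, 21.5 for Asl, 10.8 for Oaz1, 4.28 for Arg1 and 2.89 for Nos2. Odc1 stood at the 97.1st percentile and Srm at the 96.9th of the 11148 genes with a control mean of at least 1 FPKM, while Arg1 stood at the 16.8th and Nos2 at the 11.4th. Odc1 and Srm were thus among the most abundant transcripts of these cells, Sms stood at the 68.4th percentile, and both genes that compete for arginine were among the scarce ones. Because Odc1, Sms and Oaz1 share sequence with pseudogenes, as described below, their levels in this order are uncertain. Among neighbours in this order, only those at its ends came close. In control cells the highest Srm value (216 FPKM) came just under the lowest Odc1 value (217 FPKM), and in both treated groups the values of these genes overlapped. Arg1 and Nos2 did not overlap in control cells, overlapped at 10 µg/ml, and did not overlap at 100 µg/ml, where their order was reversed.

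Nos2 (ENSMUSG00000020826, chr11:78920787-78960254, + strand), the inducible nitric oxide synthase, was at 2.55, 3.03 and 3.10 FPKM in the control libraries. It was at 5.93, 2.74 and 3.53 FPKM at 10 µg/ml and at 3.61, 3.25 and 4.87 FPKM at 100 µg/ml. Each value at 100 µg/ml exceeded the highest control value, while those at 10 µg/ml spread from within the control range to well above it, with the highest value of all in replicate 1. The means were 2.89 ± 0.300, 4.07 ± 1.66 and 3.91 ± 0.848 FPKM (SD, n = 3 each). The log2 fold change against control was 0.33 at 100 µg/ml (SE 0.217, limma adjusted p = 0.460) and 0.33 at 10 µg/ml (adjusted p = 1).

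Arg1 (ENSMUSG00000019987, chr10:24915208-24927470, - strand), the cytosolic arginase, was at 5.41, 3.68 and 3.74 FPKM in control cells. It was at 5.30, 2.81 and 4.69 FPKM at 10 µg/ml and at 2.62, 1.68 and 3.18 FPKM at 100 µg/ml. All 3 values at 100 µg/ml were below the lowest control value, and the value of replicate 2 at 10 µg/ml, which was below it too, lay within their range. The group means were 4.28 ± 0.980, 4.27 ± 1.30 and 2.49 ± 0.761 FPKM (SD, n = 3 each), so that the mean at 100 µg/ml was 0.583 times that of control cells and 0.585 times that at 10 µg/ml. The log2 fold change was -0.60 at 100 µg/ml against control (SE 0.232, limma adjusted p = 0.202) and -0.58 at 100 against 10 µg/ml (adjusted p = 0.301). At 10 µg/ml against control it was -0.02. At the estimated depth and a transcript of 1477 nt, the Arg1 values stand for roughly 29.7 to 108 fragments per library and the Nos2 values, with 4192 nt, for roughly 130 to 343.

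Because these genes use the same substrate, their ratio was also taken within each library, a choice made after their values were seen, for which no test is given. The log2 ratio of Arg1 to Nos2 was 1.09, 0.28 and 0.27 in control cells, -0.16, 0.03 and 0.41 at 10 µg/ml, and -0.46, -0.96 and -0.61 at 100 µg/ml. Arg1 thus exceeded Nos2 in all control libraries and in none of the libraries at 100 µg/ml, and the values at 100 µg/ml did not overlap with those of either other group. The separation from control cells had to follow, since at 100 µg/ml all Arg1 values were below control and all Nos2 values above. It adds nothing to the values of the single genes. The mean log2 ratio was 0.55 ± 0.47 in control cells, 0.09 ± 0.29 at 10 µg/ml and -0.68 ± 0.25 at 100 µg/ml (SD, n = 3 each).

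**Figure D2:**
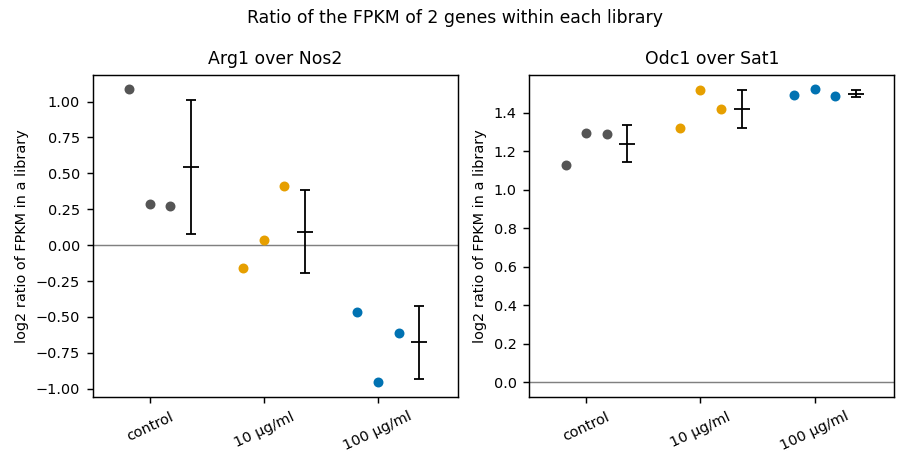
Log2 ratio of FPKM between 2 genes within a library, for Arg1 over Nos2 (left) and Odc1 over Sat1 (right), in control cells and at 10 and 100 µg/ml; points are libraries, bars the mean ± SD, and the grey line marks equal FPKM. The 3 Arg1 over Nos2 ratios at 100 µg/ml, -0.96 to -0.46, lie below the 6 others.

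Arg2 (ENSMUSG00000021125, chr12:79130777-79156301, + strand), the mitochondrial arginase, was listed at 0 in 5 of the 9 libraries. Its other values were 0.0604 and 0.107 FPKM in control replicates 1 and 3, 0.0543 FPKM in replicate 2 at 10 µg/ml and 0.0597 FPKM in replicate 2 at 100 µg/ml. At the estimated depth these values correspond to about 1 or 2 fragments each, so no difference between groups could be read from them. Some of the Arg2 transcript (21.2% of its distinct stretches of 50 nt) is also found in other genes, chiefly Vti1b, a neighbour on the opposite strand.

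Citrulline is returned to arginine by argininosuccinate synthase (Ass1) and argininosuccinate lyase (Asl). Ass1 (ENSMUSG00000076441) was listed at 0 in 8 libraries. In the third library at 10 µg/ml it stood at 0.154 FPKM, about 3 fragments at the estimated depth. Of its stretches of 50 nt, 55.3% are also found in the processed pseudogene Gm5424, which was listed at 0 in every library. Asl (ENSMUSG00000025533, chr5:130011258-130025132, - strand) was at 22.0, 21.3 and 21.0 FPKM in control cells, at 19.5, 18.5 and 19.0 FPKM at 10 µg/ml, and at 23.2, 16.4 and 17.0 FPKM at 100 µg/ml. The values at 10 µg/ml lay below all control values, whereas at 100 µg/ml replicate 1 had the highest value of all and the other two replicates the lowest. For Asl, limma gave a log2 fold change against control of -0.16 with 10 µg/ml (adjusted p = 1) and of -0.19 with 100 µg/ml (SE 0.113, adjusted p = 0.394). Without replicate 1 at 100 µg/ml it was -0.35 with an adjusted p of 0.0127, so that library decided this value.

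Odc1 (ENSMUSG00000011179, chr12:17544873-17551502, + strand), the ornithine decarboxylase at the entry to polyamine synthesis, was at 217, 224 and 230 FPKM in control cells. It was at 227, 230 and 247 FPKM at 10 µg/ml and at 295, 252 and 274 FPKM at 100 µg/ml. The lowest value at 100 µg/ml was above the highest in either other group, while the values at 10 µg/ml overlapped with those of control cells. The means were 224 ± 6.39, 235 ± 10.8 and 274 ± 21.6 FPKM (SD, n = 3 each). The log2 fold change was 0.29 at 100 µg/ml against control (SE 0.066, limma adjusted p = 0.0646), 0.07 at 10 µg/ml against control (adjusted p = 1) and 0.22 at 100 against 10 µg/ml (adjusted p = 0.182). Odc1 was thus the gene of the 10 with the smallest adjusted p at 100 µg/ml, and it passed the threshold under quantile normalization (adjusted p = 0.0283) and without replicate 2 at 100 µg/ml (adjusted p = 0.0469). Its adjusted p ran up to 0.203, without control replicate 1.

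Spermidine synthase (Srm) and spermine synthase (Sms) add the aminopropyl groups. Srm (ENSMUSG00000006442, chr4:148591503-148594993, + strand) was at 205, 215 and 216 FPKM in control cells, at 218, 238 and 237 FPKM at 10 µg/ml, and at 288, 215 and 220 FPKM at 100 µg/ml. All values at 10 µg/ml lay above the control values, and at 100 µg/ml replicate 1 stood far above the other two, which lay near the highest control value. The log2 fold change at 100 µg/ml was 0.17 (SE 0.103, limma adjusted p = 0.406), and 0.04 without that replicate. Sms (ENSMUSG00000071708, chrX:157443855-157492287, - strand) was at 33.7, 29.1 and 31.4 FPKM in control cells, 30.3, 30.0 and 32.3 FPKM at 10 µg/ml and 34.4, 28.5 and 32.1 FPKM at 100 µg/ml. The 3 groups overlapped, and the log2 fold change of Sms was 0.01 at 100 µg/ml (SE 0.080, adjusted p = 0.962) and -0.02 at 10 µg/ml.

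Sat1 (ENSMUSG00000025283, chrX:155213132-155216449, - strand), which encodes the acetyltransferase that marks spermidine and spermine for export or oxidation, was at 99.5, 91.1 and 94.0 FPKM in control cells. It was at 90.8, 80.2 and 92.2 FPKM at 10 µg/ml and at 105, 87.7 and 97.9 FPKM at 100 µg/ml. The 3 groups overlapped. Its log2 fold change against control was 0.03 at 100 µg/ml (SE 0.080, limma adjusted p = 0.884) and -0.11 at 10 µg/ml (adjusted p = 1). The log2 ratio of Odc1 to Sat1 in a library, also taken after the values were seen, was 1.13, 1.30 and 1.29 in control cells. It was 1.32, 1.52 and 1.42 at 10 µg/ml and 1.49, 1.52 and 1.49 at 100 µg/ml, so that every treated library lay above every control library. The margin at 10 µg/ml was narrow (1.32 against 1.30). How often ratios of other gene pairs separate in this way was not computed.

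**Figure D3:**
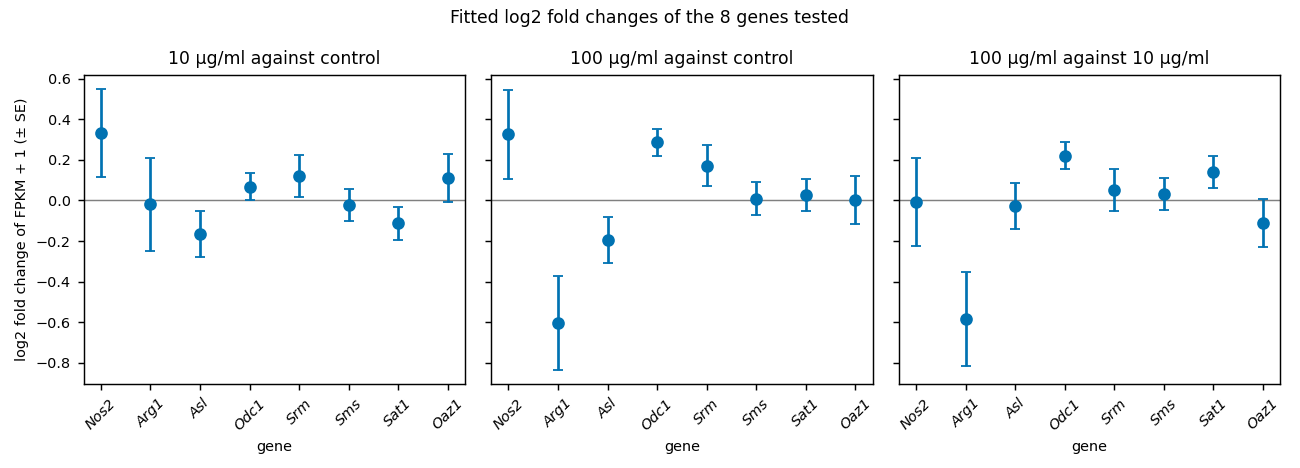
Log2 fold change of FPKM + 1 from limma (points, with the SE as bars) for the 8 genes tested, at 10 µg/ml against control (left), 100 µg/ml against control (middle) and 100 against 10 µg/ml (right). At 100 µg/ml against control Arg1 has the lowest value, -0.60, and Nos2 and Odc1 the highest, 0.33 and 0.29; none has an adjusted p under 0.05.

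Oaz1 (ENSMUSG00000035242, chr10:80826656-80829290, + strand) encodes antizyme 1, which binds ornithine decarboxylase and carries it to the proteasome. Antizyme is made only when ribosomes shift frame at a stop codon early in the message, a step that polyamines promote. The annotation treats this site in different ways, and a processed pseudogene, Oaz1-ps (chr17:17345456-17346140, - strand), carries the same sequence. The following stretches of 3 GENCODE M21 transcripts (GRCm38), written 5′ to 3′, show this. They come from chr10:80828265-80828334 for Oaz1 and chr17:17345897-17345966 for Oaz1-ps, and the capitals mark the stop codon, or what is left of it.
Oaz1-205: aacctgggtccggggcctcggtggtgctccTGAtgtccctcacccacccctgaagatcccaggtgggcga
Oaz1-ps-201: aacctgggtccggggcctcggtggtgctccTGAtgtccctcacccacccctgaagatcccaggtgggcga
Oaz1-207: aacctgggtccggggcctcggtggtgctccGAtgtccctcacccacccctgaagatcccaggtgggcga
The Oaz1-205 and Oaz1-ps-201 stretches are identical over 70 bases. Oaz1-207 has 69 bases, since its annotation leaves out the base at position 80828295 of chromosome 10 as an intron of 1 nt, which keeps the coding frame open in the gene model. Of the 7 Oaz1 transcripts in the annotation, 3 have this gap of 1 nt, 1 has a gap of 4 nt at the site, 2 cover the site with no gap and 1 does not cover it. Over the whole pseudogene of 685 nt, 684 bases (99.9%) lie in runs of at least 20 nt that are identical to Oaz1-207 with the missing base put back, the longest of 560 nt.

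Oaz1 itself was at 11.8, 12.0 and 8.54 FPKM in control cells, at 11.5, 11.2 and 12.1 FPKM at 10 µg/ml and at 11.6, 9.88 and 10.5 FPKM at 100 µg/ml. The groups overlapped, and the lowest value was that of control replicate 3. The log2 fold change at 100 µg/ml was 0.00 (SE 0.118, limma adjusted p = 1). Oaz1-ps was at 88.6, 92.3 and 91.5 FPKM in control cells, 97.7, 89.2 and 107 FPKM at 10 µg/ml, and 133, 98.2 and 101 FPKM at 100 µg/ml. The pseudogene was thus listed at 7.52 to 11.4 times the level of the gene in each library, and each of its values at 100 µg/ml exceeded the highest control value, with replicate 1 highest. The fitted log2 fold change of Oaz1-ps at 100 µg/ml was 0.27 (SE 0.113, adjusted p = 0.238), and that of the summed FPKM of both was 0.24 (adjusted p = 0.263). How the fragments of the shared sequence were divided between Oaz1 and Oaz1-ps cannot be told from the deposited table, so the level of Oaz1 and its fold change are uncertain.

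Sms and Odc1 also share sequence with pseudogenes that were listed with FPKM values of their own. Of the distinct stretches of 50 nt in the protein-coding transcripts, 45.5% were also in another gene for Oaz1, 42.2% for Odc1 (in 16 genes), 28.1% for Sms, 6.86% for Sat1 and 2.40% for Srm, and none were for Arg1, Nos2 and Asl. The Sms copy, listed as Gm14680 in the deposited table and as Sms-ps in GENCODE M21 (chrX:62775585-62776685), was at 107, 105 and 109 FPKM in control cells, at 107, 102 and 117 FPKM at 10 µg/ml, and at 121, 109 and 113 FPKM at 100 µg/ml. It was thus listed well above Sms in every library. For Gm14680 the log2 fold change at 100 µg/ml was 0.09 (limma adjusted p = 0.468). For Odc1 the copy with the highest FPKM in the table was Gm9115, at 45.8, 46.7 and 47.1 FPKM in control cells, 44.3, 51.1 and 51.8 FPKM at 10 µg/ml, and 57.2, 51.9 and 55.1 FPKM at 100 µg/ml. Its values at 100 µg/ml lay above those of both other groups, like those of Odc1. When the 4 copies of Odc1 with a mean of at least 1 FPKM were added to it, the log2 fold change at 100 µg/ml was 0.28 (adjusted p = 0.0783), against 0.29 for Odc1 alone. The division of shared fragments cannot be told here either, so the levels of Sms, Odc1 and their copies are uncertain.

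**Figure D4:**
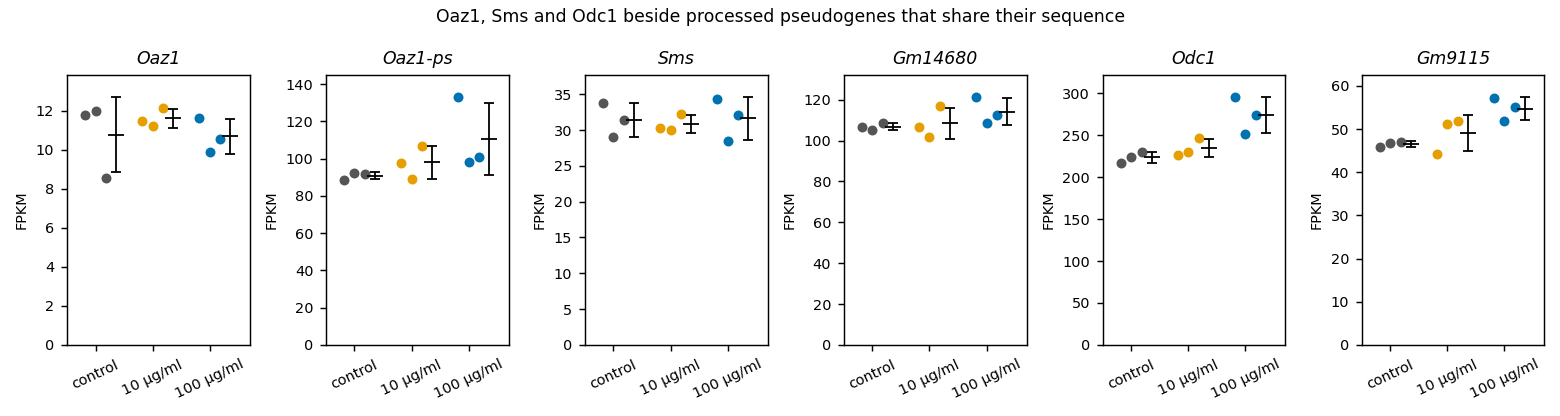
FPKM (linear axis from 0, scaled for each gene) of Oaz1, Sms and Odc1, each followed by the processed pseudogene copy with the highest FPKM in the table (Oaz1-ps, Gm14680 and Gm9115), in the 3 groups; points are libraries and bars the mean ± SD. Oaz1-ps (88.6 to 133 FPKM) and Gm14680 (102 to 121 FPKM) are above their parent genes, and Gm9115 (44.3 to 57.2 FPKM) is below Odc1.

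Other genes of the same pathways were taken from 3 lists chosen by function, with earlier results of these libraries known. The table holds 60 of them, and 39 were tested. At 100 µg/ml against control, 1 was called, lower, and 14 had an unadjusted p under 0.05. At 10 µg/ml against control 0 were called and 2 had an unadjusted p under 0.05, and at 100 against 10 µg/ml 0 were called and 10 had an unadjusted p under 0.05. The groups at 100 µg/ml and control did not overlap for 11 of the 39 genes (28.2%), of which 8 were lower and 3 higher at 100 µg/ml. Over all genes tested at 100 µg/ml against control, 2.11% were called, 19.4% had an unadjusted p under 0.05 and 23.8% did not overlap. At 10 µg/ml against control, 0% were called and 3.28% had an unadjusted p under 0.05. At 100 against 10 µg/ml these shares were 0.851% and 14.3%.

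For arginine transport and use, 10 of 18 genes were tested, 1 fell and 8 of the 10 fold changes at 100 µg/ml were below 0, with a median of -0.10 on the log2 scale, where that of all genes was 0.00. Slc7a7, which encodes the light chain of an exchanger of cationic amino acids, fell from 2.24, 2.54 and 2.20 FPKM in control cells to 1.10, 1.06 and 1.33 FPKM at 100 µg/ml. At 10 µg/ml it was at 2.18, 1.73 and 2.11 FPKM, between the other groups and without overlap with either. Against control, the log2 fold change of Slc7a7 at 100 µg/ml was -0.62 (SE 0.112, limma adjusted p = 0.0295). This call was lost in 8 of 16 alternatives, among them with each control library left out and without replicate 2 or 3 at 100 µg/ml, with adjusted p up to 0.116, and without replicate 3 at 10 µg/ml (0.0539). Slc7a1, the main constitutive arginine transporter of many cells, was at 70.9 to 80.6 FPKM in control cells, 64.8 to 79.6 FPKM at 10 µg/ml and 41.2 to 62.8 FPKM at 100 µg/ml. Its values at 100 µg/ml lay below all the others, with a log2 fold change against control of -0.49 (SE 0.150, adjusted p = 0.123). Slc3a2, the heavy chain that pairs with Slc7a7, had a log2 fold change of -0.19 (adjusted p = 0.186), and Padi2, which turns arginine residues of proteins into citrulline, one of -0.29 (adjusted p = 0.164). Rars, the arginyl-tRNA synthetase, was the most expressed gene of this list, at 155 to 169 FPKM over the 9 libraries, with a log2 fold change of 0.01.

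For nitric oxide and its cofactor tetrahydrobiopterin, 12 of 20 genes were tested and 0 were called. At 100 µg/ml against control 5 had an unadjusted p under 0.05 (19.4% of all genes tested), with a median log2 fold change of -0.10 over the 12 genes. The neuronal and endothelial synthases Nos1 and Nos3 had means of 0.0880 and 0.0662 FPKM and were not tested. Gch1, the enzyme that opens tetrahydrobiopterin synthesis, just missed the minimum, with 0.994 FPKM. Calm3 and Calm2, which encode a calcium sensor that nitric oxide synthases bind, had log2 fold changes of -0.26 (SE 0.084, limma adjusted p = 0.147) and -0.19 (adjusted p = 0.248). Gchfr, which encodes the feedback regulator of the Gch1 enzyme, was at 0.998 to 1.84 FPKM in control cells and 0.555 to 1.07 FPKM at 100 µg/ml, with some overlap, and had a log2 fold change of -0.44 (adjusted p = 0.218).

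For polyamine metabolism, 17 of 22 genes were tested, 0 were called and 5 had an unadjusted p under 0.05 at 100 µg/ml against control (19.4% of all genes tested). Of the 17 fold changes, 11 were above 0, with a median of 0.07. Smox, the spermine oxidase, was at 7.41, 8.80 and 8.89 FPKM in control cells, at 9.81, 9.42 and 9.59 FPKM at 10 µg/ml and at 10.8, 11.1 and 10.7 FPKM at 100 µg/ml. The 3 groups did not overlap, and the order of their values followed the dose. Its log2 fold change was 0.35 at 100 µg/ml (SE 0.073, limma adjusted p = 0.0514) and 0.18 at 10 µg/ml (adjusted p = 1). Azin1, which encodes an antizyme inhibitor that releases ornithine decarboxylase from antizyme, was at 196 to 205 FPKM in control cells, 196 to 200 FPKM at 10 µg/ml and 212 to 241 FPKM at 100 µg/ml, with a log2 fold change of 0.19 against control (adjusted p = 0.109). Mtap, the phosphorylase that clears the by-product of spermidine and spermine synthesis, had a log2 fold change of 0.19 (adjusted p = 0.116), and its values at 100 µg/ml lay above all the others. Eif5a, the translation factor that carries the spermidine-derived residue hypusine, was at 726 to 806 FPKM in control cells and at 755, 579 and 583 FPKM at 100 µg/ml. Replicate 1 at 100 µg/ml lay within the control range and the other two below it, with a log2 fold change of -0.26 (adjusted p = 0.208), and without that replicate it was -0.39 with an adjusted p of 0.0185.

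**Figure D5:**
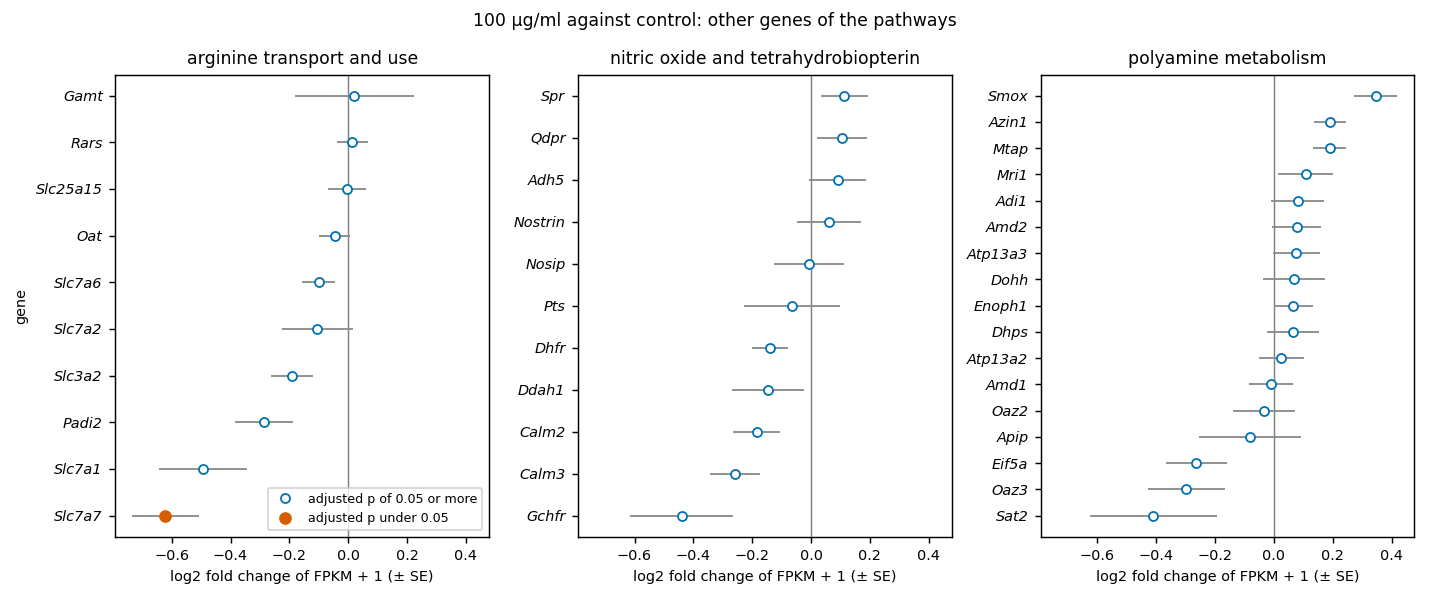
Log2 fold change of FPKM + 1 from limma at 100 µg/ml against control (points, with the SE as bars) for 38 of the 39 other genes tested, in the 3 lists. Slc7a7 (-0.62) is the filled point, with an adjusted p under 0.05; Smox has the highest value of the polyamine list, 0.35.

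The other lists were read to place the Arg1 and Nos2 values. Of 18 tested regulators of these enzymes, 1 was called and 8 had an unadjusted p under 0.05 at 100 µg/ml against control (19.4% of all genes tested). Only 4 of the 18 fold changes were above 0, with a median of -0.12. Of the 8 genes, Cebpd (log2 fold change -0.59), Myc (-0.38), Epas1 (-0.33), Ifngr1 (-0.29), Mxd1 (-0.27) and Irf1 (-0.17) were lower and not called. Nfkb1, an NF-kB subunit, was also lower and not called (log2 fold change -0.15, limma adjusted p = 0.138). The gene called was Rela, another NF-kB subunit. It rose from 20.8 to 22.1 FPKM in control cells to 25.4 to 26.2 FPKM (log2 fold change 0.27, limma adjusted p = 0.0370), with 22.5 to 24.1 FPKM at 10 µg/ml. This call was lost in 10 of 17 alternatives, with adjusted p up to 0.153 without control replicate 2. Of the 4 tested markers of alternative activation, 0 were called and 2 had an unadjusted p under 0.05. These were Mrc1, which was lower at 100 µg/ml than in control cells (log2 fold change -0.21), and Tgm2, which was higher (0.27). Retnla and Chil3 were listed at 0 in every library. Of the 7 tested markers of classical activation, 1 was called and 4 had an unadjusted p under 0.05 at 100 µg/ml against control (19.4% of all genes tested). Their directions differed, with 3 of the 7 fold changes above 0. Of the 4 genes with an unadjusted p under 0.05, Cxcl10 was higher and Marco, Cd86 (log2 fold change -0.24) and Fcgr1 (-0.20) were lower. Cxcl10 was higher in all libraries at 100 µg/ml than in control cells but was not called (log2 fold change 0.48, limma adjusted p = 0.125). The gene called was Marco, a scavenger receptor. It fell from 93.8, 103 and 94.1 FPKM in control cells to 58.0, 42.0 and 50.8 FPKM at 100 µg/ml (log2 fold change -0.94, adjusted p = 0.00566). Marco was at 79.3 to 85.7 FPKM at 10 µg/ml, and its log2 fold change at 100 against 10 µg/ml was -0.71 (adjusted p = 0.0243). The call against control was lost in 1 of 17 alternatives, with only the 6 libraries compared (adjusted p = 0.0561), and the call against 10 µg/ml in 9 of 17. The summed level of the 12 microglia and macrophage markers was 1278 to 1467 FPKM in control cells, 1286 to 1373 FPKM at 10 µg/ml and 1204 to 1373 FPKM at 100 µg/ml. That of the 15 markers of other brain cells was 1.87 to 2.01, 1.08 to 1.52 and 1.02 to 1.96 FPKM. The overlap of the summed microglia and macrophage levels hides a shared direction. Of the 10 of these markers that were tested, 0 had a log2 fold change above 0 at 100 µg/ml against control. Their fold changes ran from -0.65 to -0.03, with a median of -0.18. Values of a whole culture of this cell line, scaled to the library total, cannot show whether all cells changed or only some.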

How the data were processed

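The deposited FPKM values were computed by the authors with Cufflinks 2.1.1 and Ensembl release 77, from TopHat alignments of quality-filtered reads, with multi-read and fragment bias correction. A stranded kit and oligo(dT) beads were used for the libraries. No counts were analysed, and the division of shared reads among copies of a gene is fixed in the FPKM values.

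The members and gene lists were chosen with earlier results of these data known. Samples were grouped by their treatment labels. FPKM was transformed as log2(FPKM + 1), and genes whose mean reached 1 FPKM were tested with limma 3.58.1 (R 4.3.3), with 3 groups in the same fit, eBayes with a trend and Benjamini-Hochberg adjustment, a procedure tested on simulated data. Cuffdiff, used by the authors, takes alignments and was not rerun. Sequence shared with other genes was counted as exact stretches in GENCODE M21 transcripts, on either strand. Tables were made with Python 3.11.15 and pandas 2.3.3. The text names all 10 genes, listed genes with an adjusted p under 0.05, and in each pathway list the 3 with the smallest unadjusted p at 100 µg/ml and the 2 with the highest mean. Some genes that this rule covers are not reported here. Pseudogene copies, Gch1, Nos1, Nos3, Retnla, Chil3, Mrc1, Tgm2, Cxcl10, Nfkb1, Aqp4, Snap25, Cx3cr1 and P2ry12 were added after their values were seen. So were Cd86, Fcgr1, Cebpd, Myc, Epas1, Ifngr1, Mxd1 and Irf1. Alternatives were quantile normalization, median-of-ratios rescaling, a pseudocount of 0.1, no filter, a minimum mean of 5 FPKM, a replicate block, eBayes without trend, only the 6 libraries compared, and each library left out in turn.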

Additional observations from a re-analysis of the deposited data

How the results depend on the processing

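At 100 µg/ml against control, 0 of the 8 tested genes of arginine, nitric oxide and polyamine metabolism were called. The count became 1 under quantile normalization (Odc1) and ranged from 0 to 1 with single libraries left out. In both other comparisons it was 0 under every alternative. Of the other pathway genes, 1 was called at 100 µg/ml against control. The count was 2 under quantile normalization, median-of-ratios rescaling and eBayes without trend, 0 with a replicate block and with only the 6 libraries compared, and 0 to 5 with single libraries left out (5 without replicate 1 at 100 µg/ml). At 100 against 10 µg/ml it was 1 under quantile normalization and 0 to 2 with single libraries left out. Over all genes, the 236 calls at 100 µg/ml against control became 106 with the replicate block, 22 with only the 6 libraries compared and 31 to 539 with single libraries left out. The 95 calls at 100 against 10 µg/ml became 13, 6 and 8 to 191. The cause of these shifts was not tested.

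Replicate numbers are shared between the groups, and no label says whether they pair the samples. The correlations of the deviations of same-numbered libraries ran from -0.088 to 0.152 (median -0.025). For libraries with different numbers they ran from -0.166 to 0.143 (median -0.011). Same-numbered libraries thus showed no clear shared deviation, but values this weak cannot tell whether the samples were paired. With the replicate block, the log2 fold change of Odc1 at 100 µg/ml had an adjusted p of 0.114 and that of Slc7a7 one of 0.0823. Of 411 fold changes of single genes under the alternatives, 409 moved by less than the SD between replicates. Both others were those of Oaz1 with Oaz1-ps added, an alternative chosen after seeing the data, with 0.24 at 100 µg/ml against control and 0.14 at 100 against 10 µg/ml. The count of 409 is no sign of robustness, because most of these values could not have moved further. The filters, the replicate block, eBayes without trend and the fit of only the 6 libraries compared leave a fold change as it was. Leaving out a single library cannot shift it by more than this SD. Low FPKM limits Arg2 and Ass1, where single fragments decide the values.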

Other observations

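The genes whose log2(FPKM + 1) followed that of Arg1 most closely over the 9 libraries were Akap7 (Pearson r = 0.924), P4ha1 (0.921), Vnn3 (0.918), Pigv (0.917) and Flot2 (0.912). For Nos2 they were Gm6736 (0.914), Hsd3b7 (0.894), C630016N16Rik (0.875), Gemin4 (0.871) and Pramef8 (0.869). These are the 5 highest of all genes tested for each, and the libraries share their groups, so the values are given as a description only. P4ha1 (mean 48.0 FPKM), a subunit of collagen prolyl 4-hydroxylase, was the most expressed of the 5 that followed Arg1.

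The log2 ratio of Srm to Sms in a library had a mean of 2.76 ± 0.14 in control cells, 2.90 ± 0.08 at 10 µg/ml and 2.92 ± 0.14 at 100 µg/ml (SD, n = 3 each). The log2 ratio of Odc1 to Srm was 0.04, 0.23 and 0.32 in the libraries at 100 µg/ml, against 0.06 to 0.09 in control cells and -0.05 to 0.06 at 10 µg/ml. These ratios were taken after the values were seen.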
